A study of Mus musculus with 6 samples.

Results

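The 9 microglia genes described here are C1qa, C1qb, C1qc, Cx3cr1, P2ry12, Tmem119, Csf1r, Trem2 and Ctss. They were taken by name, as genes known to mark microglia, with no threshold on a measured value, from 53354 gene symbols in an RNA-seq table of the mouse hippocampus. The table lists 22 isoforms of the 9 genes among 133944 isoforms, and 21 of the 22 had counts. The hippocampus of N-cre;Fox1 mice (n = 3) was compared with that of N-cre controls (n = 3), all C57BL/6 and 3 months old, with 1 library of total RNA per mouse. N-cre mice carried only the Nes-Cre transgene. N-cre;Fox1 mice carried Nes-Cre and 1 R26-Rbfox1 flox allele, in which an Rbfox1 cDNA placed in Gt(ROSA)26Sor is driven by the CAG promoter once cre has removed a loxP-flanked stop. Cre is expressed from the nestin promoter in both genotypes, so the design has no mice without cre. The comparison asks whether the microglial genes of the tissue differed when the Rbfox1 allele was active in cells with nestin-driven cre.

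Microglia are the resident macrophages of the brain. They secrete C1q, the recognition molecule that starts the classical complement cascade and that tags synapses and debris for uptake. They sense neurons through the fractalkine receptor Cx3cr1 and the ADP receptor P2ry12, depend for their survival on Csf1r, recognize lipids through Trem2, and degrade proteins in lysosomes with cathepsin S, the product of Ctss. Tmem119 encodes a membrane protein used to tell microglia from other macrophages.

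The 9 genes lie on 6 chromosomes of the mm10 build. The C1q genes are neighbours on chromosome 4, all on the minus strand, with C1qb at chr4:136880129-136886187, C1qc at chr4:136889804-136893065 and C1qa at chr4:136895917-136898803. P2ry12 and Ctss are on chromosome 3, Cx3cr1 on 9, Trem2 on 17, Tmem119 on 5 and Csf1r on 18. In the annotation the exons of Csf1r share 873 bases with Hmgxb3 on the opposite strand, those of Cx3cr1 share 78 bases with Gm33858, and those of P2ry12 share 9 bases with Med12l. The library kit keeps the strand, but the strand setting used for counting is not given in the sources used here, so reads in those shared bases may be counted for either gene.

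No difference between the 2 genotypes was detected for any of the 9 genes. None of the 9 was called by edgeR's quasi-likelihood test at a Benjamini-Hochberg adjusted p under 0.05, where 5 of 18924 genes tested were called (0.0264%). At an unadjusted p under 0.05, 0 of the 9 and 6.19% of all genes passed. The ranges of the genotypes overlapped for 9 of the 9, while 12.1% of the genes tested had separate ranges. With 9 genes, counts of 0 lie near these shares and tell little about the members. The 95% confidence intervals of the 9 fold changes reached from 0.864 to 1.16, so changes beyond these limits lay outside every interval. In RNA from whole tissue, fewer microglia and less RNA per microglial cell cannot be told apart.

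**Figure D1:**
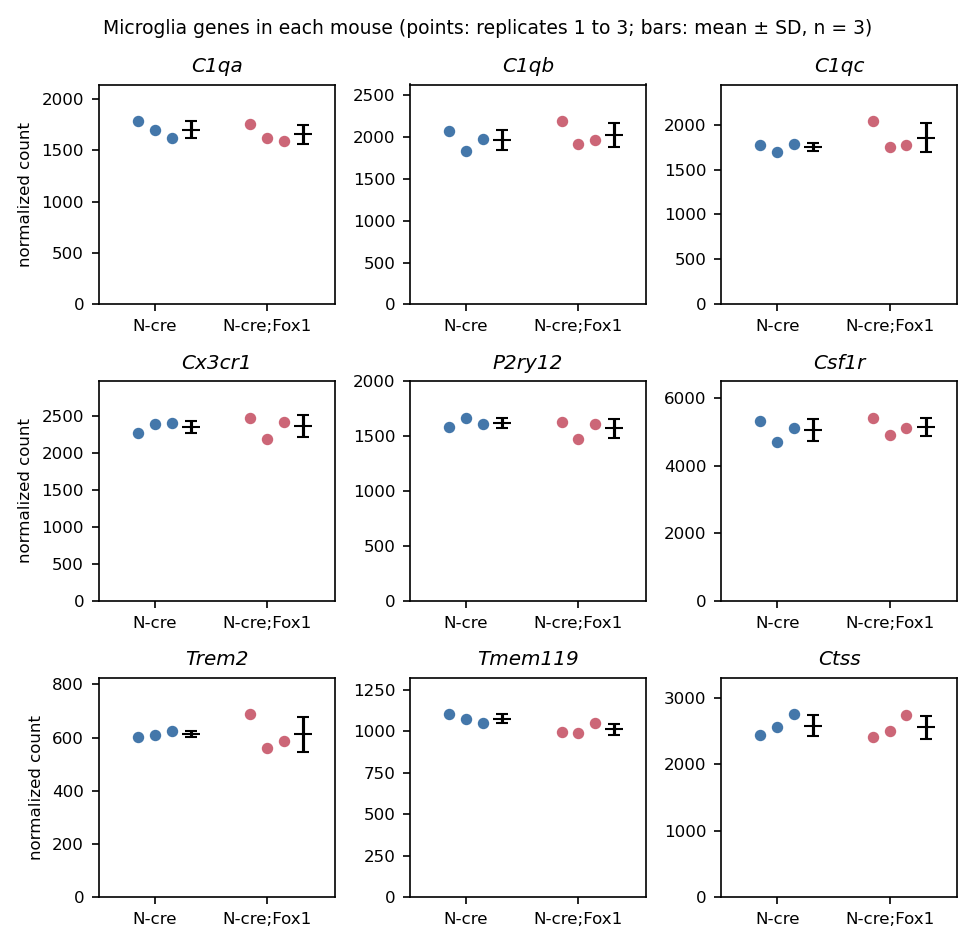
Normalized counts (y axes, each from 0) of the 9 microglia genes in N-cre and N-cre;Fox1 mice (x axes), with one point per mouse and the mean ± SD beside it. The points of the genotypes overlap in every panel, and Csf1r has the highest counts and Trem2 the lowest.

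The sum over the 9 genes was 18950, 18241 and 18974 normalized counts in N-cre replicates 1, 2 and 3, and 19623, 17916 and 18871 in N-cre;Fox1 replicates 1, 2 and 3. Both the highest and the lowest sum came from N-cre;Fox1 mice, and the means of 18721 ± 416 and 18803 ± 856 (SD, n = 3 each) differed by less than either SD.

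The libraries held between 40463587 and 62141336 expected counts (N-cre) or between 54352011 and 59362399 (N-cre;Fox1). The members had 477 to 6208 of them per mouse, at which counting alone gives a coefficient of variation of 1.40% (Csf1r) to 4.05% (Trem2). The coefficient of variation over the 6 mice was 4.16% (P2ry12) to 7.06% (Trem2). Xist had 27387 and 22347 counts in replicate 1 of N-cre and of N-cre;Fox1, and 17 to 22 in the other 4 mice. Summed counts of 7 choroid plexus markers were 1458, 1982 and 119980 in the N-cre and 1782, 269833 and 1502 in the N-cre;Fox1 mice, so N-cre replicate 3 and N-cre;Fox1 replicate 2 stood apart. Without these 2 mice, 0 of the 9 genes were called and their log2 fold changes ran from -0.09 (Tmem119) to 0.14 (C1qc).

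For the C1q chains, which assemble together into 1 molecule, the genotypes differed by less than 0.1 on the log2 scale. C1qa had 1782, 1693 and 1622 normalized counts in the N-cre and 1756, 1618 and 1586 in the N-cre;Fox1 mice. Replicate 1 had the most in both genotypes, and the ranges overlapped. Its log2 fold change, N-cre;Fox1 against N-cre throughout, was -0.04 (SE 0.0552, 95% interval -0.16 to 0.08, adjusted p = 0.964 in edgeR).

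C1qb had 2074, 1837 and 1981 normalized counts in the N-cre and 2188, 1912 and 1969 in the N-cre;Fox1 mice, with a log2 fold change of 0.04 (SE 0.0617, adjusted p = 0.967). N-cre;Fox1 replicate 1 was the highest of the 6 mice and N-cre replicate 2 the lowest. C1qc had 1769, 1699 and 1783 in the N-cre and 2038, 1755 and 1770 in the N-cre;Fox1 mice. Again N-cre;Fox1 replicate 1 was the highest mouse, and the other 2 of its genotype lay within the N-cre range. Its fitted log2 fold change was 0.08, with a 95% interval from -0.05 to 0.22 (SE 0.0607, adjusted p = 0.907).

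Within the summed C1q counts of a mouse, the share of a chain is free of differences in library size. C1qc took 31.4%, 32.5% and 33.1% in the N-cre and 34.1%, 33.2% and 33.2% in the N-cre;Fox1 mice. The share was higher in each N-cre;Fox1 mouse than in any N-cre mouse, by 1.15 percentage points between the means, and was not tested. Separate ranges were also seen in the counts of 12.1% of all genes tested, but a count is not a share among related chains. No rate was computed for such shares. The difference was 0.702 points without N-cre replicate 1 and 1.53 points without N-cre replicate 3. The C1qa share was 31.7%, 32.4% and 30.1% against 29.4%, 30.6% and 29.8%, and that of C1qb was 36.9%, 35.1% and 36.8% against 36.6%, 36.2% and 37.0%. Both of these overlapped.

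Promoters were read from RefSeq for GRCm38.p6 for 6 of the 9 genes, C1qb, C1qc, Cx3cr1, P2ry12, Trem2 and Ctss. Csf1r was left out of the search, and C1qa and Tmem119 had no entry. The 250 bases before the start of C1qb and of Ctss are shown as the promoters of the 2 genes with the highest level per length. They run 5′ to 3′ on the strand of the gene, and capitals mark GAGGAA or its reverse complement TTCCTC, the core bound by the macrophage factor PU.1. The first is chr4:136886201-136886450, minus strand, and the second is chr3:95526536-95526785, plus strand.
C1qb: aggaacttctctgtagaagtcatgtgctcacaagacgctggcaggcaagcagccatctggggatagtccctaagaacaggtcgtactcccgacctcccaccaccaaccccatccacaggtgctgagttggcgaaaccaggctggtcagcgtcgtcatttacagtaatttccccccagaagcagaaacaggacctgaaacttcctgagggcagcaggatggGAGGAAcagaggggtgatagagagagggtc
Ctss: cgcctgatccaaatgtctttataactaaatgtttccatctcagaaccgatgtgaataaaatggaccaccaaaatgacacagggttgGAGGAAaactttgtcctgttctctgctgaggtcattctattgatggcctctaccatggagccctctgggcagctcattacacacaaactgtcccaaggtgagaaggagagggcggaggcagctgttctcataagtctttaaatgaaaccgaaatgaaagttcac

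Over windows from 250 bases before to 50 bases after the start, searched on both strands, 4 of the 6 promoters held the core (C1qb, C1qc, Trem2 and Ctss), as did 28.3% of 32851 promoters of the same length. In C1qb 1 match began 30 bases before the start, in Trem2 1 match began 40 bases before it, in C1qc 1 match began 193 bases before it, and of 2 matches in Ctss 1 began 164 bases before it and 1 at it. No match was found in the windows of Cx3cr1 and P2ry12. A match is a description of the letters and not a measured binding site.

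Among the receptors, Cx3cr1 had 2270, 2403 and 2411 normalized counts in the N-cre and 2484, 2197 and 2422 in the N-cre;Fox1 mice. The N-cre;Fox1 mice held both the highest and the lowest value. The log2 fold change was 0.0046 (SE 0.0513, 95% interval -0.11 to 0.12, adjusted p = 0.996). Its ligand Cx3cl1, a membrane-bound chemokine of neurons, had 30582 to 32364 against 28872 to 31478 normalized counts, with a log2 fold change of -0.03. Adam10 and Adam17, proteases that release Cx3cl1 from the membrane, had log2 fold changes of -0.01 and 0.14 (adjusted p = 0.992 and 0.852 in edgeR).

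P2ry12 had 1582, 1669 and 1609 normalized counts in the N-cre and 1629, 1474 and 1613 in the N-cre;Fox1 mice. N-cre;Fox1 replicate 2 alone lay below the N-cre range. The log2 fold change of the summed counts was -0.04 (SE 0.0526, 95% interval -0.16 to 0.07, adjusted p = 0.958). Entpd1, an ectoenzyme that breaks down extracellular ATP and ADP, had a log2 fold change of 0.03 (adjusted p = 0.983).

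Csf1r, the receptor that microglia need to survive, had 5330, 4699 and 5138 normalized counts in the N-cre and 5432, 4904 and 5127 in the N-cre;Fox1 mice. In both genotypes replicate 1 was highest and replicate 2 lowest. Its log2 fold change was 0.03 (SE 0.0533, 95% interval -0.09 to 0.15, adjusted p = 0.975). Its 2 ligands did not differ beyond the spread of the mice either, with log2 fold changes of 0.01 for Csf1 (1503, 1551 and 1666 against 1679, 1619 and 1443 normalized counts) and -0.02 for Il34 (2375, 2330 and 2164 against 2369, 2182 and 2240). The adjusted p-values in edgeR were 0.995 and 0.986.

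Trem2 was the member with the fewest counts and the widest interval. It had 602, 611 and 624 normalized counts in the N-cre and 688, 561 and 586 in the N-cre;Fox1 mice. The N-cre mice lay close together, with N-cre;Fox1 replicate 1 above them and the other 2 N-cre;Fox1 mice below. The log2 fold change was -0.0018 (SE 0.0879, 95% interval -0.20 to 0.19, adjusted p = 0.999 in edgeR). Tyrobp, the adaptor through which Trem2 signals, had 513, 532 and 531 normalized counts in the N-cre and 580, 570 and 585 in the N-cre;Fox1 mice. The ranges of Tyrobp did not overlap, with a log2 fold change of 0.14 (SE 0.0721, unadjusted p = 0.0814, adjusted p = 0.823 in edgeR), which did not pass the test. Apoe, a lipid carrier that Trem2 binds, had a log2 fold change of 0.07 (adjusted p = 0.884).

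Tmem119 had the largest negative log2 fold change of the 9 and ranked first among them by p. It had 1104, 1076 and 1051 normalized counts in the N-cre and 994, 990 and 1052 in the N-cre;Fox1 mice. Only N-cre;Fox1 replicate 3 reached the N-cre range, and it exceeded the lowest N-cre mouse by under 2 counts. The fitted log2 fold change was -0.09 (SE 0.0545, 95% interval -0.21 to 0.03), with an unadjusted p of 0.130 and an adjusted p of 0.857 in edgeR. By unadjusted p it stood at 2862 of the 18924 genes.

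Ctss, the lysosomal protease, had 2437, 2554 and 2754 normalized counts in the N-cre and 2415, 2504 and 2745 in the N-cre;Fox1 mice. The ranges nearly coincided. The log2 fold change was -0.01 (SE 0.0585, 95% interval -0.14 to 0.12, adjusted p = 0.990). Cst3, which encodes cystatin C, an inhibitor of cathepsins, had a log2 fold change of 0.04 (adjusted p = 0.962).

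**Figure D2:**
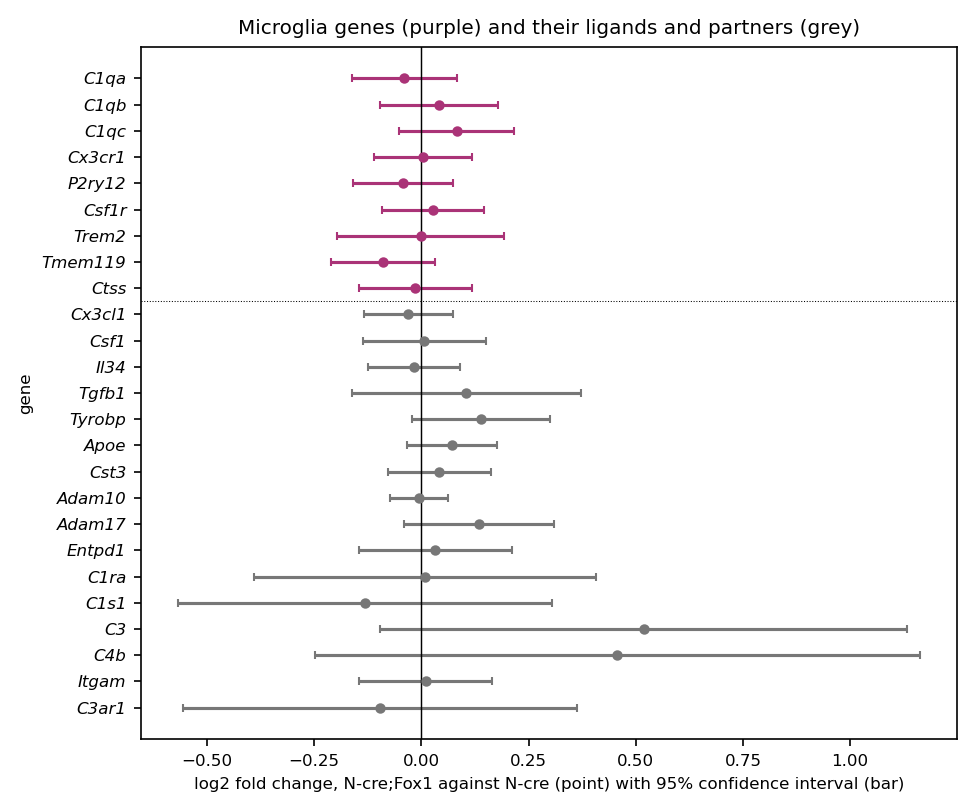
Log2 fold change of N-cre;Fox1 against N-cre (points) with its 95% confidence interval in edgeR (bars) for the 9 microglia genes and for 16 ligands, partners and complement genes (y axis). The 9 intervals in purple all contain 0 and are narrow, and the widest intervals are those of C4b and C3.

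In the mean over the 9 genes, the mice differed more than the genotypes. For Tmem119 the means of 1077 ± 26.8 (N-cre) and 1012 ± 34.8 (N-cre;Fox1) normalized counts (SD, n = 3 each) differed by more than either SD. N-cre;Fox1 replicate 1 was the highest mouse for 5 of the 9 genes (C1qb, C1qc, Cx3cr1, Csf1r and Trem2), and the mean over the genes of its log2 level against the gene's own mean was 0.07. N-cre;Fox1 replicate 2 was the lowest for 4 (Cx3cr1, P2ry12, Trem2 and Tmem119), lay above the mean of the gene for 0 of the 9, and averaged -0.07. The other 4 mice averaged -0.02 to 0.01. N-cre;Fox1 replicate 2 is the mouse with the most choroid plexus marker counts, and the part of these in its low values was not tested. N-cre replicate 3, which also held many, was above the mean for 6 of the 9. Leaving out N-cre;Fox1 replicate 1 gave log2 fold changes between -0.09 (Trem2) and 0.03 (Ctss), and leaving out N-cre;Fox1 replicate 2 gave -0.07 (Tmem119) to 0.12 (C1qc), with 0 of the 9 called in both fits.

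**Figure D3:**
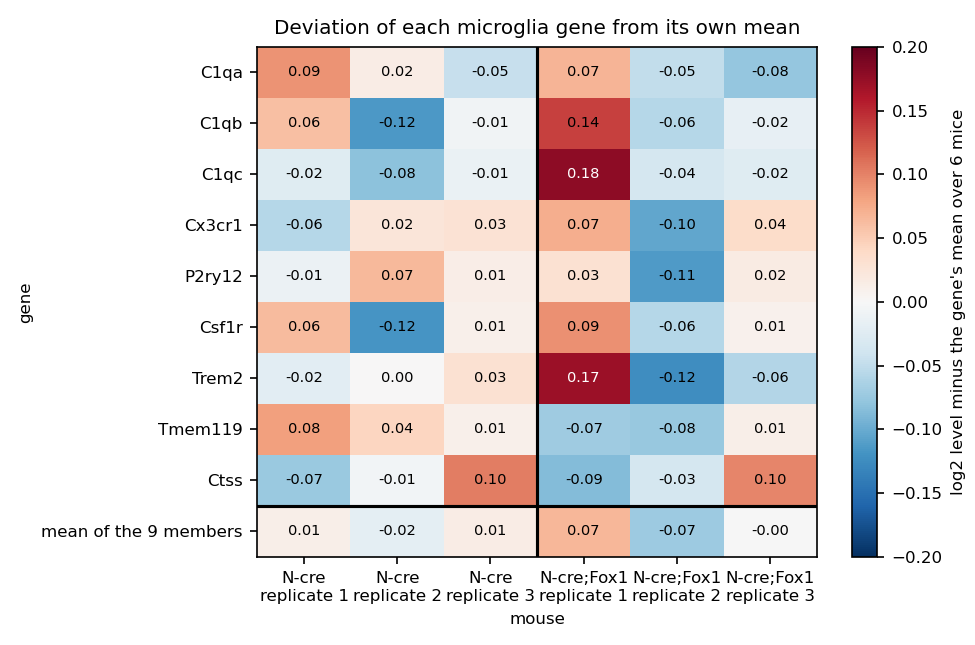
Log2 normalized level of each microglia gene (rows) in each mouse (columns) minus the gene's mean over the 6 mice, in log2 units, with the mean over the 9 genes in the last row. N-cre;Fox1 replicate 1 is above the mean in 7 rows and N-cre;Fox1 replicate 2 in 0, and the last row runs from -0.07 to 0.07.

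Levels of different genes were compared per length of transcript, as TPM, the expected count divided by the annotated length and scaled to the same total in each mouse. In the mean over the 6 mice they were 89.3 for Ctss, 86.3 for C1qb, 75.9 for C1qa, 70.6 for C1qc, 61.6 for Csf1r, 46.7 for P2ry12, 32.8 for Cx3cr1, 22.0 for Tmem119 and 21.5 for Trem2. C1qc, Csf1r, P2ry12, Cx3cr1 and Tmem119 followed each other without overlap over the 6 mice. Ctss and C1qb overlapped, as did C1qb and C1qa, C1qa and C1qc, and Tmem119 and Trem2. Within each mouse C1qb exceeded C1qa in 6 of 6, and C1qa exceeded C1qc in 5 of 6. The order partly depends on which length is used: with the length of the isoform that had the most counts, the TPM of P2ry12 was 35.8, that of Cx3cr1 35.3 and that of Trem2 26.5. Trem2 then stood above Tmem119, at 21.9, and P2ry12 and Cx3cr1 were nearly equal.

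**Figure D4:**
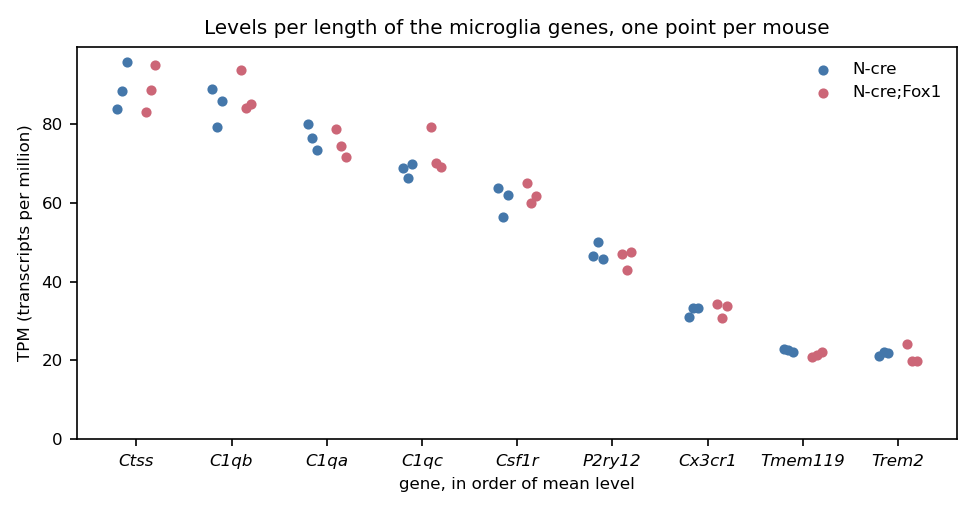
TPM (y axis, from 0) of the 9 microglia genes (x axis, in order of their mean), with one point per mouse, N-cre on the left and N-cre;Fox1 on the right of each pair. Ctss and C1qb have the highest levels and Tmem119 and Trem2 the lowest, in both genotypes.

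Of the 22 isoforms, 20 had enough counts to be tested. None of the 20 was called at an adjusted p under 0.05 in the reported fit, where 0 of all 50556 isoforms tested were called (0.0%). Over all isoforms some other fits called more, up to 215 by DESeq2's Wald test. At an unadjusted p under 0.05, 1 of the 20 passed, beside 4.78% of all. The 2 genotypes had separate ranges for 3 of the 20, all lower in N-cre;Fox1 (P2ry12-203, Cx3cr1-203 and Tmem119-201), while 11.5% of all isoforms did not overlap and 5.66% were lower in every N-cre;Fox1 mouse. For Tmem119-201 the nearest values were 1049.5 (N-cre replicate 3) and 1048.99 (N-cre;Fox1 replicate 3). The gene sums of Tmem119, normalized in a separate fit, overlapped. Trem2-204 was at 0 in every mouse, and Tmem119-202 had 5.06 counts over the 6 mice. C1qa and C1qb have 1 isoform each in the table, C1qc-201 held 99.6% of C1qc in N-cre and 99.4% in N-cre;Fox1 mice, and Tmem119-201 held nearly the whole of Tmem119.

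P2ry12 was spread over the most isoforms. All 4 of its longer isoforms carry the same coding length of 1041 bases and differ in where they begin. P2ry12-202, which begins at chr3:59220259 on the minus strand, far downstream of P2ry12-201 at chr3:59262831, held 61.2%, 68.2% and 77.0% of the counts in the N-cre and 72.9%, 65.9% and 74.2% in the N-cre;Fox1 mice. P2ry12-201 held 4.38 ± 1.45% and 6.12 ± 1.33% (SD, n = 3 each), and the short fragment P2ry12-205 13.5 ± 1.67% and 12.9 ± 0.787%. The share of P2ry12-204 had wide relative spread, with 16.02%, 6.31% and 2.16% in the N-cre and 5.41%, 10.6% and 3.22% in the N-cre;Fox1 mice. These 4 shares overlapped between the genotypes.

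P2ry12-203, which begins at chr3:59227581, had 67.5, 82.7 and 102 normalized counts in the N-cre and 60.2, 55.6 and 54.7 in the N-cre;Fox1 mice. Each N-cre;Fox1 mouse was below each N-cre mouse. Its log2 fold change was -0.56 (SE 0.215), with an unadjusted p of 0.0380 and an adjusted p of 0.990 in edgeR. As a share of P2ry12 it was 5.19 ± 1.07% in N-cre and 3.62 ± 0.198% in N-cre;Fox1 mice (SD, n = 3 each). An exact two-sided permutation test gave p = 0.1, which is the smallest p that 3 against 3 mice allow, and 0.675 after adjustment over the 18 shares tested. Of these 18 shares it was the only one whose ranges did not overlap, beside 10.9% of the shares of all tested isoforms.

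Cx3cr1 was split between isoforms with the same coding length of 1062 bases. Cx3cr1-202 held 51.5%, 59.1% and 53.8% in the N-cre and 58.9%, 53.4% and 60.3% in the N-cre;Fox1 mice, and Cx3cr1-201 held most of the rest. Cx3cr1-203, which begins further upstream, had 34.7, 34.1 and 60.3 normalized counts in the N-cre and 22.7, 31.5 and 20.7 in the N-cre;Fox1 mice, with a log2 fold change of -0.77 (unadjusted p = 0.0640, adjusted p = 0.990 in edgeR). Its counts were lower in each N-cre;Fox1 mouse, but its share, 1.82% and 1.07% in the means, overlapped between the genotypes. Csf1r-201 held 94.9 ± 1.32% of Csf1r in N-cre and 94.8 ± 1.57% in N-cre;Fox1 mice (SD, n = 3 each), and the remainder fell to Csf1r-202, whose last exon is longer.

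The isoforms of Ctss and of Trem2 differ within their coding sequence, and the stretches around these differences are shown because these bases set the isoforms of each gene apart. In Ctss the exon 2 of Ctss-201 begins 3 bases before that of Ctss-202, at chr3:95529434 against chr3:95529437 on the plus strand. The lines show, 5′ to 3′, the last 20 bases of exon 1 and the first bases of exon 2 of each, with the 3 extra bases in capitals.
Ctss-201: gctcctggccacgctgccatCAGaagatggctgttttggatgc
Ctss-202: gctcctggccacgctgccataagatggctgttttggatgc

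Ctss-202, without the 3 bases, held 91.5%, 92.4% and 93.3% of Ctss in the N-cre and 91.3%, 93.4% and 94.2% in the N-cre;Fox1 mice. The shares overlapped and differed by 0.57 percentage points in the means (exact permutation p = 0.7, two-sided, 0.840 adjusted). Ctss-201 had 157 to 210 normalized counts per mouse.

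In Trem2 the exon 4 of Trem2-202 begins 55 bases before that of Trem2-201, at chr17:48351691 against chr17:48351746 on the plus strand, and the annotated coding lengths without the stop codon are 747 and 681 bases. Shown 5′ to 3′ are the last 20 bases of exon 3 and the start of exon 4, with the 55 extra bases in capitals.
Trem2-202: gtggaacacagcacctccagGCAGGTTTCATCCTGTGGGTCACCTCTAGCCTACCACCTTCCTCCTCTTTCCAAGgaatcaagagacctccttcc
Trem2-201: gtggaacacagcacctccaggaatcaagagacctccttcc

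Trem2-201 held 66.3%, 63.5% and 69.7% of Trem2 in the N-cre and 64.2%, 63.1% and 61.8% in the N-cre;Fox1 mice. Trem2-202, with the extra bases, held 10.04%, 15.3% and 4.89% in the N-cre and 12.1%, 10.7% and 10.2% in the N-cre;Fox1 mice, on 30.5 to 93.7 normalized counts per mouse. Trem2-203, annotated with a retained intron and no coding sequence, held 23.6%, 21.2% and 25.4% against 23.6%, 26.2% and 28.0%. All 3 shares overlapped, with exact two-sided permutation p-values of 0.2, 0.7 and 0.2. RSEM divided reads that fit more than 1 isoform, so shares of isoforms with few bases of their own rest on an estimate.

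**Figure D5:**
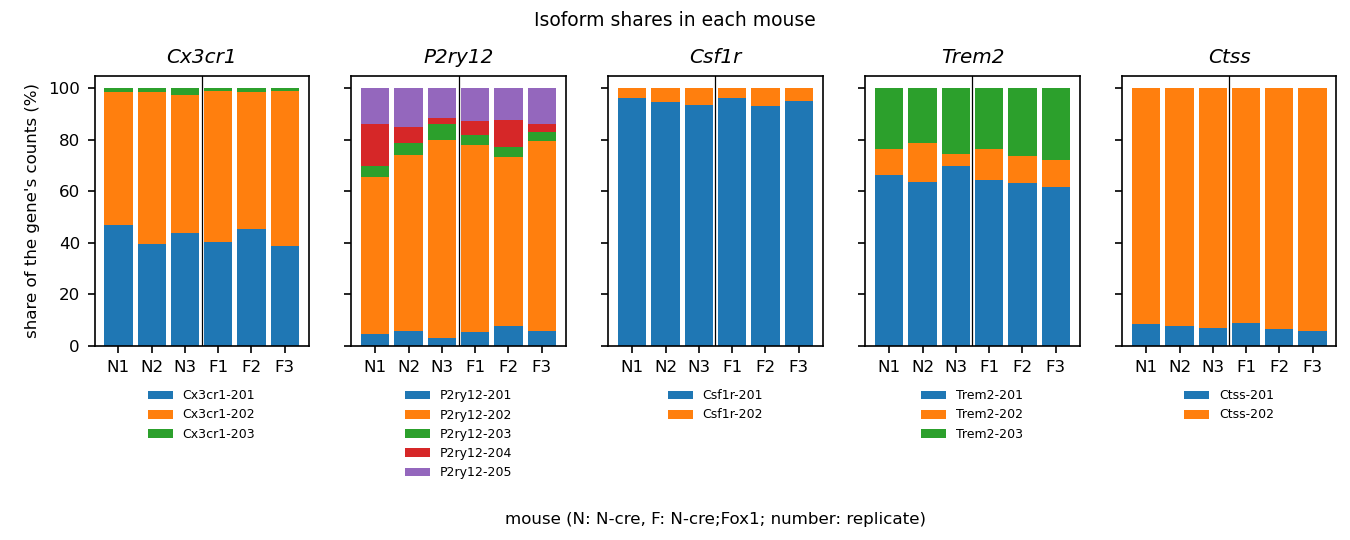
Share of each isoform in the expected counts of its gene (y axes, in percent) in the 3 N-cre (N) and 3 N-cre;Fox1 (F) mice (x axes) for the 5 genes with several isoforms above a few percent. The largest isoform is the same in all 6 mice of each gene, and the shares of P2ry12 spread widely, from 61.2% to 77.0% for P2ry12-202 and from 2.16% to 16.02% for P2ry12-204.

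A wider set of microglial genes held no call either. On a list of 33 further identity genes, such as Sall1, Irf8, Spi1 (PU.1) and Siglech, 33 were tested, 0 were called and 0 had an unadjusted p under 0.05 in either direction, beside 3.59% of all genes that were higher and 2.6% that were lower at that level. Their median log2 fold change was 0.05, and that of all genes tested was 0.00. The summed normalized counts of the 33 were 28028 to 29974 in the N-cre and 29106 to 30184 in the N-cre;Fox1 mice.

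Among 31 complement genes other than the C1q chains, 29 were tested, 0 were called, and at an unadjusted p under 0.05 3 were higher and 0 lower, with a median log2 fold change of 0.01. Their summed normalized counts were 121994 to 129652 in the N-cre and 130722 to 133793 in the N-cre;Fox1 mice. These ranges did not overlap, but without Clu, the gene of the list with the most counts, the sums of the genotypes overlapped. The sum was not tested, and no rate of separate ranges was computed for such sums. Clu, which encodes the complement-binding chaperone clusterin, had 38498, 35743 and 40198 normalized counts in the N-cre and 44450, 47678 and 43323 in the N-cre;Fox1 mice. Each N-cre;Fox1 mouse exceeded each N-cre mouse, as for 6.04% of all genes, and the log2 fold change of 0.24 (SE 0.0539, unadjusted p = 0.00103) had an adjusted p of 0.453 in edgeR. Vtn, the plasma and matrix protein vitronectin, and Cd93, a membrane receptor first described for C1q, had log2 fold changes of 0.11 and 0.35 (adjusted p = 0.799 and 0.777). The proteases that C1q activates, C1ra and C1s1, had log2 fold changes of 0.01 and -0.13 on 68.4 to 149 normalized counts. C4b, the next component, had 2110, 1721 and 1770 in the N-cre and 3499, 2154 and 2051 in the N-cre;Fox1 mice, so that its log2 fold change of 0.46 (adjusted p = 0.876) was led by N-cre;Fox1 replicate 1 and was 0.17 without it. C3, cleaved next in the cascade, had 60.4 to 72.0 against 58.4 to 133 normalized counts (log2 fold change 0.52, adjusted p = 0.832), and its log2 fold change was 0.19 without N-cre;Fox1 replicate 2, the mouse with the most choroid plexus marker counts. Its receptors Itgam and C3ar1 had log2 fold changes of 0.01 and -0.10.

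Of 28 ligands, adaptors and partners of the members, 26 were tested and 0 were called, with a median log2 fold change of -0.01. Their summed normalized counts, Clu included, were 177139 to 185549 in the N-cre and 188130 to 193732 in the N-cre;Fox1 mice. These ranges did not overlap, but again the sums of the genotypes overlapped without Clu. The sum was not tested. At an unadjusted p under 0.05, 1 was higher (Clu, also on the complement list) and 1 lower, Cd200, the neuronal ligand of an inhibitory myeloid receptor, at -0.11 (adjusted p = 0.777). Tgfb1, on which microglial identity depends, had a log2 fold change of 0.10 (adjusted p = 0.954). Of 24 lysosomal genes and cathepsins other than Ctss, 23 were tested and 0 were called, and 2 were lower at an unadjusted p under 0.05. Ctsf, which encodes cathepsin F, had 2969, 2758 and 2838 against 2638, 2615 and 2641 normalized counts, lower in each N-cre;Fox1 mouse, as were 6.1% of all genes (log2 fold change -0.12, adjusted p = 0.712), and Ctso was at -0.15 (adjusted p = 0.799).

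Markers of cells that share genes with microglia or lie beside them were read on the same scale. Of 14 markers of border macrophages, which also express Csf1r, C1q and Ctss, 14 were tested, 0 were called and 0 had an unadjusted p under 0.05. Their sum was 1726, 1499 and 1705 normalized counts in the N-cre and 1948, 1944 and 1224 in the N-cre;Fox1 mice, below the counts of Ctss alone in every mouse. Of 15 blood cell markers, 7 had enough counts to be tested, with 0 called. Of 10 astrocyte markers 0 were called. Their log2 fold changes were above 0 for 5 and below 0 for 5, with a median of 0.0041. At an unadjusted p under 0.05, 4 were higher and 1 lower. These were led by Gfap, the intermediate filament of astrocytes, with 24304, 23597 and 22722 against 34277, 28026 and 29773 normalized counts (log2 fold change 0.38, adjusted p = 0.320 in edgeR). Of 10 neuronal, 8 oligodendrocyte, 6 precursor and 10 vascular markers 0 were called, and 1 (Mobp, a myelin protein) had an unadjusted p under 0.05. For the 7 choroid plexus markers, 0 of which were called, the ranges of the genotypes overlapped.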

How the data were processed

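The samples were hippocampi of 6 mice, 3 per genotype, grouped by the sample labels. The authors trimmed paired reads with Cutadapt 1.18, aligned them to mm10 with STAR 2.5.2b and quantified isoforms with RSEM 1.3.0. They deposited expected counts per isoform, which are neither normalized nor filtered and need not be whole. RSEM divides ambiguous reads, so gene sums are firmer than isoform values.

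Isoforms were summed by gene symbol and rounded. Genes and isoforms were filtered with filterByExpr (minimum count 10, minimum total 15), normalized by TMM and tested with edgeR 4.0.16 (quasi-likelihood, robust, genotype only) in R 4.3.3, with Benjamini-Hochberg adjustment over 18924 genes or 50556 isoforms and a threshold of 0.05. The study used EBSeq, which was not installed. Normalized counts are expected counts divided by the TMM-scaled library size and multiplied by its mean over the mice. Unrounded shares were compared by exact permutation in SciPy 1.17.1. Positions and lengths came from GENCODE M21, which held 130826 of the 133944 isoforms and 22 of the 22 described. Promoters came from RefSeq.

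The fits were tested on simulated data in which the changes were far larger than those of the 9 genes. That simulation does not tell how small a change could be found. The members were taken by name, without a rule on their values, but they, the gene lists and the rule for naming genes were chosen with earlier results of these data known. The rule named the 9 members, their isoforms with a mean share of at least 5%, 16 ligands and partners, and from each of 15 lists called genes or otherwise up to 3 genes with the smallest unadjusted p under 0.05. P2ry12-203 and Cx3cr1-203, with smaller shares, were named after their values were seen. Alternatives were other normalizations (DESeq2's size factors, upper quartile), filters (1 count in total, 10 in every mouse), tests (DESeq2 1.42.0 Wald, limma-voom in limma 3.58.1), unrounded counts, a replicate block, a term for mice with Xist counts above 1000, and each mouse left out. A fit without the 2 mice with high choroid plexus counts was added after seeing the data. With 3 mice per group, both the spread between mice and, for isoforms with few counts, depth limit the precision.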

Additional observations from a re-analysis of the deposited data

How the results depend on the processing

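The 9 genes were called 0 times under each alternative, DESeq2 and limma-voom included, and so were their isoforms. Of 144 log2 fold changes of the 9 genes under alternatives, 124 kept their sign and 20 did not, between -0.12 and 0.14, and the lowest adjusted p was 0.710. Over all genes 5 were called in the reported fit, 45 with no filter beyond 1 count, 50 by DESeq2's Wald test, 11 with a term for mice with high Xist, and 2 to 29 with mice left out (2 without N-cre replicate 2, 29 without N-cre;Fox1 replicate 1, 7 without both mice high in choroid plexus markers). On the lists, 3 genes other than the members (Clu, Gfap and Aqp4) were called with no filter and 3 by DESeq2, and 1 (Gfap) with the Xist term. Isoform shares whose genotypes did not overlap numbered 1 with the 6 mice, 7 without replicate 1 of both genotypes, and 1 to 6 with other mice left out (6 without N-cre replicate 2, and also without both mice high in choroid plexus markers). With smaller groups, non-overlap is reached more easily. Whether replicate numbers pair the mice by litter or batch is not stated, and correlations between mice cannot decide it. Over genes, the correlations of same-numbered mice were 0.378, -0.095 and -0.211. N-cre replicate 3 correlated best with N-cre;Fox1 replicate 2 (0.439), and both are high in choroid plexus markers. With the replicate block 5 genes, 0 members and 0 isoforms were called. Over all isoforms 0 were called in the reported fit and 215 by DESeq2's Wald test. Fits with no filter beyond 1 count, with at least 10 counts in every mouse and with unrounded counts called 10, 6 and 1. Signs also changed, and the cause was not tested. Many of these values were near 0. P2ry12-204 and Trem2-202, at -0.43 and 0.15 with all mice, also changed sign with mice left out. With upper quartile normalization the log2 fold change was -0.00529 for Cx3cr1, -0.00262 for Csf1, -0.00236 for C1ra, -0.000164 for Itgam and -0.0071 for P2ry12-202. With limma-voom it was -0.0184 for C1ra and 0.00408 for Ctss-202, and for Trem2 it was 0.00267 with no filter and 0.00113 with at least 10 counts in every mouse. With mice left out, log2 fold changes ranged from -0.0805 to 0.00080 for C1qa, from -0.0134 to 0.0883 for C1qb, from -0.0264 to 0.0734 for Cx3cr1, from -0.065 to 0.00308 for P2ry12, from -0.0198 to 0.0748 for Csf1r, from -0.0897 to 0.0725 for Trem2, from -0.0684 to 0.0517 for Ctss, from -0.0522 to 0.0107 for Cx3cl1, from -0.0335 to 0.0689 for Csf1, from -0.0524 to 0.0148 for Il34, from -0.00171 to 0.0938 for Cst3, from -0.218 to 0.139 for C1ra, from -0.0562 to 0.0867 for Itgam, from -0.227 to 0.0458 for C3ar1, from -0.0112 to 0.00622 for Adam10, from -0.0185 to 0.106 for Entpd1, from -0.191 to 0.0276 for Trem2-201, from -0.176 to 0.58 for Trem2-202, from -0.0287 to 0.0763 for Csf1r-201, from -0.175 to 0.226 for Csf1r-202, from -0.0905 to 0.175 for P2ry12-202, from -1.37 to 0.477 for P2ry12-204 and from -0.0753 to 0.0584 for Ctss-202. Differences between shares, in percentage points, ranged from -1.66 to 3.55 for Trem2-202, from -0.78 to 0.777 for Csf1r-201, from -0.777 to 0.78 for Csf1r-202, from -1.64 to 8.84 for P2ry12-202, from -6.85 to 2.17 for P2ry12-204, from -1.52 to 0.0862 for P2ry12-205, from -1.4 to 0.0635 for Ctss-201 and from -0.0635 to 1.4 for Ctss-202. Without replicate 1 of both genotypes they were -2.61 for P2ry12-202, 2.66 for P2ry12-204 and 0.422 for Cx3cr1-201.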

Other observations

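Genes of activated microglia and of inflammation were read beside the 9 genes. Of 23 genes of the disease-associated microglial state other than the members, 22 were tested and 0 were called, with a median log2 fold change of 0.06. At an unadjusted p under 0.05, Gpnmb (0.38) and B2m (0.13) were higher and Fabp5 (-0.17) lower, with adjusted p-values of 0.783, 0.758 and 0.693 in edgeR. Of 22 cytokine and inflammasome genes only 10 had enough counts to be tested, and Il1b, Tnf, Il6 and Ccl2 were among the 12 that did not. Nlrp3, the sensor of an inflammasome, had 59.2, 49.8 and 37.9 normalized counts in the N-cre and 25.6, 22.8 and 28.7 in the N-cre;Fox1 mice, with a log2 fold change of -0.94 (SE 0.248, unadjusted p = 0.00336, adjusted p = 0.635). Of 16 interferon-response genes 0 were called. Ifit1, an interferon-induced antiviral gene, had 78.1, 60.4 and 83.7 against 122, 116 and 97.0 normalized counts (log2 fold change 0.59, unadjusted p = 0.00752, adjusted p = 0.693).

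The genes whose pattern over the 6 mice was most like the mean of the 9 members were Adcy3, Mad1l1, Sipa1l1, Smg5 and Abca3, with root mean square differences of 0.00567 to 0.00912 in log2 units among 13731 genes with a mean count of at least 100. The members themselves were at 0.0395 (Cx3cr1) to 0.0910 (Ctss), against a median of 0.0766 for the genes compared, and 3368 of these were under 0.05. The mean of the members is nearly flat, with a root mean square of 0.0414, so genes that vary little resemble it.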
